A study of Mus musculus with 3 samples.

Results

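The proteins that sit along actin filaments in contractile cells were examined at the RNA level as 10 genes: the tropomyosins Tpm1, Tpm2, Tpm3 and Tpm4, the caldesmon gene Cald1, the calponins Cnn1, Cnn2 and Cnn3, and the transgelins Tagln and Tagln2. They were chosen by symbol as filament partners of Acta2, an actin gene already known to be high in these libraries, and all 10 were found among the 46603 genes counted. They were measured in KO-actin cells, a line of mouse embryonic fibroblasts (MEFs) with β-actin knocked out and then given back fused to a nuclear localization signal (NLS). Polyadenylated RNA was sequenced in 3 KO-actin libraries, replicates 1 to 3, all of which carried both the knockout and the NLS-tagged protein. There was 1 condition, so nothing below is a fold change against KO or wild-type cells, and the labels do not say whether the replicates were separate cultures. Errors and p-values therefore measure only the spread between these libraries, which may be technical.

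Tropomyosin dimers polymerize head to tail in the groove of the actin filament and set which myosins and other proteins can bind it. Caldesmon and calponin bind actin and dampen the myosin ATPase in smooth muscle, and the transgelins are small calponin-related proteins that bind and bundle actin. Each family has paralogs: Tpm1, Tpm2, Cnn1 and Tagln are best known from muscle and are called muscle-type here, whereas Tpm3, Tpm4, Cnn2, Cnn3 and Tagln2 are found in most cells and are called ubiquitous. The labels are loose, because Tpm1, Tpm2 and Tpm3 each make muscle and non-muscle isoforms. Cald1 makes both the smooth muscle and the non-muscle form and was placed in neither group. The question addressed was how these 2 groups compare as partners of Acta2, the smooth muscle α-actin gene. Of the actin genes, Acta2 had the most counts in these libraries.

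CPM values are the deposited read counts of a gene scaled to a common library size. Longer RNAs give more reads, so levels of different genes were compared as CPM per kilobase, unless CPM is named, for which CPM was divided by the length covered by all annotated exons of the gene. The libraries held 44383636 to 49932446 counts, and the detection limit of 3 counts, which is as high as a gene with 0 counts could lie by counting error, came to between 0.0601 and 0.0671 CPM. Replicate 2 stood apart from the other libraries: 6063 of 13814 genes varied beyond counting error among the 3 libraries, and 1748 when replicate 2 was left out. Fibroblast markers were present, with 9 of 10 over 3 counts in every library and a summed level of 12154.5 to 13152.9 CPM. Most of this sum came from Vim, Col1a1 and Fn1, at 4563 ± 238, 4058 ± 262 and 3578 ± 17.6 CPM (SD, n = 3). Lum was at 0, Dcn at 0.152 ± 0.0156, Pdgfra at 4.97 ± 0.286 and Col1a2 at 20.99 ± 1.59 CPM. Of the other cell types, 2 of 5 epithelial, 1 of 4 blood and 2 of 4 endothelial markers had more than 3 counts in every library. Their summed levels were 38.3 to 40.3, 0.240 to 0.671 and 1.99 to 2.54 CPM. Krt18, at 37.9 ± 1.08 CPM, made up most of the epithelial sum, and Kdr, at 2.09 ± 0.278 CPM, most of the endothelial one. Epcam, Ptprc and Cdh5 were at 0 or 1 count. The targeted gene, Actb, had 1078, 1114 and 1063 CPM, and reads of the knocked-out locus and of the introduced β-actin cannot be told apart in these counts.

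All 10 genes had more than 3 counts in every library, as did 32.6% of all genes counted. Their levels spanned 128 to 1422 CPM, in bulk RNA where fewer cells with a transcript and less of it per cell cannot be told apart. Tpm1 held rank 30 among all genes by mean CPM and Tpm3, the lowest, rank 1927. Per kilobase of exon the order ran Tpm4, Cnn2, Tagln, Tpm2, Tagln2, Tpm1, Cnn3, Cald1, Cnn1 and Tpm3, so muscle-type and ubiquitous genes alternated rather than separated.

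**Figure D1:**
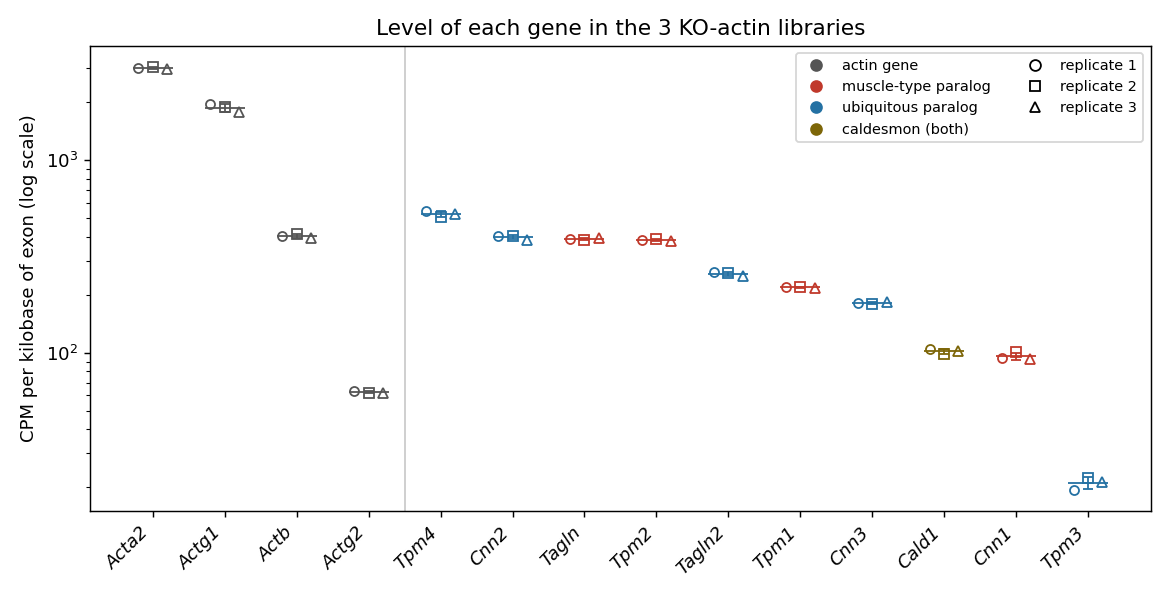
CPM per kilobase of exon, on a log axis, for the 10 genes and 4 actin genes in each of the 3 KO-actin libraries. Symbols are libraries, colours are the actin, muscle-type and ubiquitous genes, and the bar with whiskers is the mean ± SD. The 10 genes lie between 21.04 and 524 CPM per kilobase, all below Acta2 at 3008, and their order holds for this exonic length only.

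Tpm4, which makes a non-muscle tropomyosin of stress fibers, lies at chr8:72134975-72153142 (GRCm38, plus strand) and had 1197, 1112 and 1156 CPM in replicates 1, 2 and 3. Replicate 1 was the highest and replicate 2 the lowest. The mean was 1155 ± 42.4 CPM, or 524 ± 19.2 CPM per kilobase, the highest of the 10 genes on that scale. Tpm3, at chr3:90072649-90100902 (plus strand), makes the slow muscle tropomyosin and a set of short cytoskeletal isoforms, and had 118, 136 and 129 CPM. Here replicate 2 was the highest and replicate 1 the lowest. Its mean of 21.04 ± 1.51 CPM per kilobase was the lowest of the 10.

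Tpm1, at chr9:67022590-67049406 (minus strand), makes the striated and smooth muscle α-tropomyosins as well as long stress-fiber isoforms. It had 1421, 1430.2 and 1415 CPM, the closest agreement of any of the 10 genes. Its exons cover 6485 bases in 21 annotated transcripts, of which 16 are coding, and the level was 219 ± 1.19 CPM per kilobase. Tpm2, the β-tropomyosin gene at chr4:43514711-43523765 (minus strand), had 1119, 1129.9 and 1102 CPM. The libraries lay within 1.03-fold of each other, and the mean per kilobase was 384 ± 4.88 CPM.

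Together the 4 tropomyosin genes came to 1149 ± 15.99 CPM per kilobase. Tpm1 and Tpm2 supplied 51.8%, 53.6% and 52.2% of this sum in replicates 1, 2 and 3, a mean of 52.5% ± 0.952. The share was above that of Tpm3 and Tpm4 in 3 of 3 libraries, by 1.11-fold, with p = 0.25 by the two-sided exact sign-flip permutation test, which is the smallest p that 3 libraries allow. By gene, Tpm4 held 45.6% ± 1.09, Tpm2 33.4% ± 0.656, Tpm1 19.1% ± 0.311 and Tpm3 1.83% ± 0.156. The places of the first 3 depend on the length used. Per kilobase of exon Tpm1 was 0.418 times Tpm4, and per kilobase of the median coding transcript it was 1.60 times Tpm4, each in 3 of 3 libraries. Tpm3 was the lowest of the 4 under each of the 5 length choices, with a share between 1.83% and 8.59%.

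**Figure D2:**
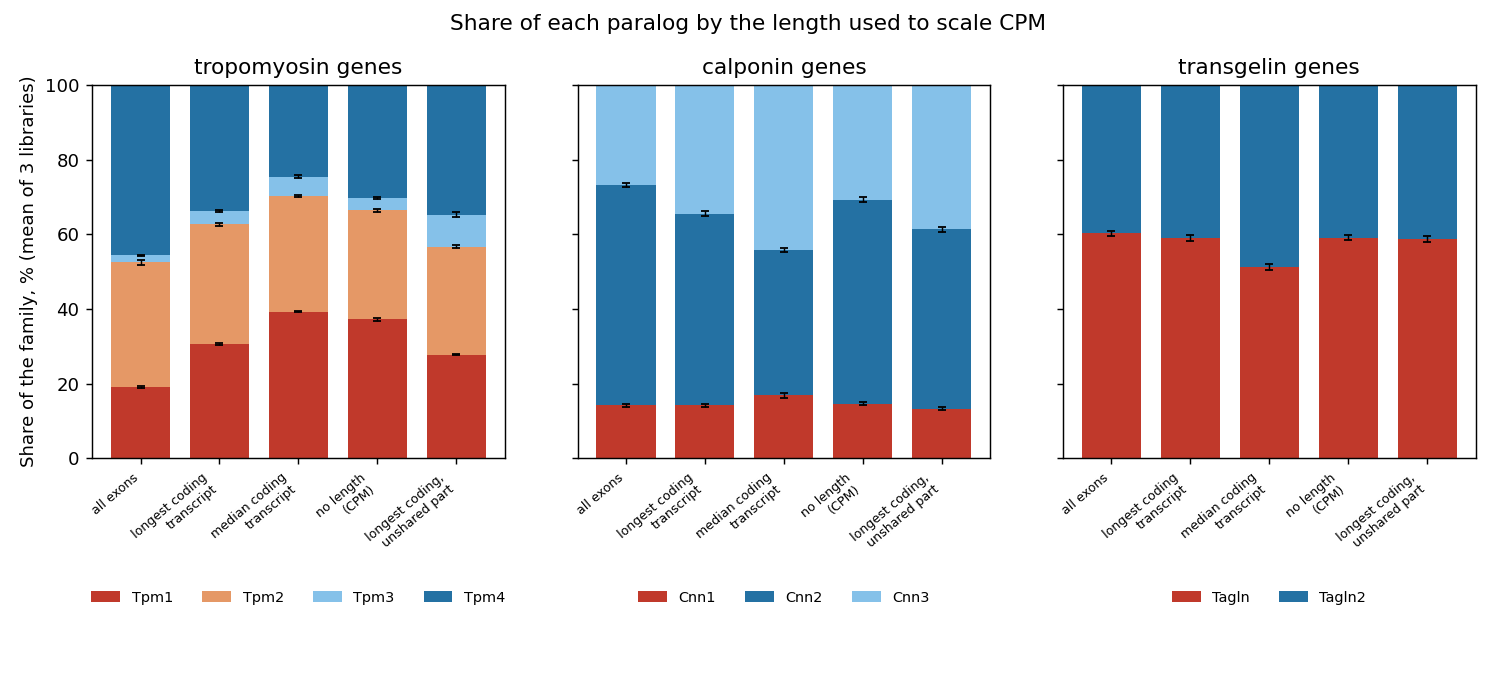
Share of each paralog within the tropomyosins, calponins and transgelins, in % of the family, for 5 ways to scale CPM by length (all exons, longest coding transcript, median coding transcript, no length, and the longest coding transcript without the part shared with another locus). Bars are means of the 3 libraries and whiskers are the SD of each gene's share. The share of Tpm1 and Tpm2 runs from 52.5% to 70.3% with the length, that of Cnn1 from 13.2% to 16.8% and that of Tagln from 51.3% to 60.2%.

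The Tpm3 value is uncertain for another reason. Of the 50-base windows of its longest coding transcript, 62.4% also occur at another locus, chiefly in Tpm3-rs7, a single-exon gene at chr14:113314608-113316754 (plus strand) annotated as protein coding. Tpm3-rs7 had 169, 161 and 168 CPM, more than Tpm3 in every library, at 1.30 ± 0.124 times its CPM with no length taken into account. Per kilobase of exon Tpm3-rs7 was at 77.3 ± 2.05 CPM against 21.04 ± 1.51 for Tpm3. Tpm3 was highest in replicate 2 and Tpm3-rs7 lowest there, and the sum of both was 287, 297 and 298 CPM. The sum spanned 1.04-fold, whereas Tpm3 alone spanned 1.15-fold. How reads matching both genes were counted is not given in the sources used here, so the split between them cannot be settled from the counts.

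For Tpm4, 12.1% of windows are shared with the processed pseudogene Gm7809, which had 45.04, 41.7 and 45.4 CPM, 0.0381 ± 0.00100 times the CPM of Tpm4, and 59.3 ± 2.79 CPM per kilobase. Of Cnn3 windows, 16.4% occur in other loci. Tpm1, Tpm2, Cald1, Cnn1, Cnn2 and Tagln shared no 50-base window with another locus, and Tagln2 shared 0.781%. On the opposite strand, Gm42928 overlaps 17.7% of the exonic bases of Cnn3 and Gm26586 6.08% of those of Tpm4, at 0.886 ± 0.152 and 0.745 ± 0.194 CPM. A choice made after seeing the data was to leave the shared stretch out of the length. Tpm3 then comes to 153 CPM per kilobase and passes Cnn1 at 110.0. Per kilobase of exon Tpm1 was at 219 and Tpm2 at 384 CPM, beside 21.04 for Tpm3, 524 for Tpm4, 77.3 for Tpm3-rs7 and 59.3 for Gm7809. With both copies added to Tpm3 and Tpm4 at these levels, the 1.11-fold lead of Tpm1 and Tpm2 is reversed. That lead may turn on how those reads were counted.

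**Figure D3:**
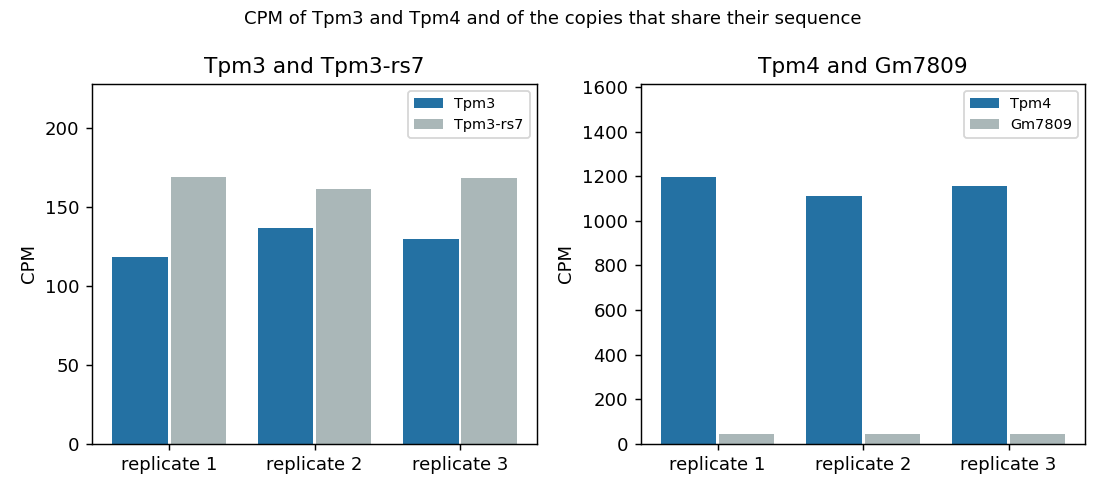
CPM of Tpm3 beside Tpm3-rs7 (left) and of Tpm4 beside Gm7809 (right) in each KO-actin library; the axes start at 0. Tpm3-rs7 exceeds Tpm3 in all 3 libraries, and Gm7809 stays between 41.7 and 45.4 CPM.

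Cnn2, a calponin of fibroblasts and other non-muscle cells at chr10:79988584-79996062 (plus strand), had 995, 999 and 952 CPM. Replicate 3 was the lowest. Per kilobase of exon its mean was 399 ± 10.4 CPM. Cnn3, the acidic calponin at chr3:121426497-121458207 (plus strand), had 552, 544 and 557 CPM, or 181 ± 2.25 CPM per kilobase. Cnn1, the smooth muscle calponin at chr9:22099216-22109630 (plus strand), had 256, 274 and 255 CPM, with replicate 2 above the other libraries, and 95.7 ± 4.005 CPM per kilobase.

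Cnn1 therefore made up 13.8%, 14.6% and 14.0% of the calponin sum of 676 ± 11.2 CPM per kilobase, a mean of 14.2% ± 0.437, while Cnn2 held 59.0% ± 0.611 and Cnn3 26.8% ± 0.769. Cnn1 was below the sum of Cnn2 and Cnn3 in 3 of 3 libraries (p = 0.25, exact sign-flip permutation test, two-sided). Of the calponins it was the lowest under each of the 5 length choices. The order of Cnn2 and Cnn3 was not stable to that choice: Cnn2 was 2.20 times Cnn3 per kilobase of exon and 0.880 times per kilobase of the median coding transcript.

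The CArG box, the site of serum response factor, is a well-known element of contractile genes. Among the genes searched, which did not include Tagln, only Cnn2, a ubiquitous calponin, held the exact box in its promoter. It is shown with the promoters of its muscle-type paralog Cnn1 and of Acta2. Sequences are from RefSeq (GRCm38.p6), read 5′ to 3′ on the gene's strand, from 250 bases before to 50 after the annotated start. Capitals mark a CArG box (CC, then 6 letters that are each A or T, then GG) in Cnn2, and in Acta2 boxes in which 1 of those 6 letters is G or C. Both strands were covered, since the box reads alike on either.
Acta2, chr19:34255324-34255623, minus strand: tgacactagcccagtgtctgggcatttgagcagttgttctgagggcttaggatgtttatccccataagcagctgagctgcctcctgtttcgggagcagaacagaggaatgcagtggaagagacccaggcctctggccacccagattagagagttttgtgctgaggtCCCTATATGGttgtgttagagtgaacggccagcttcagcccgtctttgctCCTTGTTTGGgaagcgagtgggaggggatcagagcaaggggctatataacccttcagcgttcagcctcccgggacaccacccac
Cnn1, chr9:22099003-22099302, plus strand: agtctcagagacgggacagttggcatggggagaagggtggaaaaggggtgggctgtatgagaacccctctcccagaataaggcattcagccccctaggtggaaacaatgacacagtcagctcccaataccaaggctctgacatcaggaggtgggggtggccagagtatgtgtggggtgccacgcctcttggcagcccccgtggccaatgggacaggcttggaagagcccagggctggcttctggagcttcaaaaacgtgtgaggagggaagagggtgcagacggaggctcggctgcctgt
Cnn2, chr10:79988350-79988649, plus strand: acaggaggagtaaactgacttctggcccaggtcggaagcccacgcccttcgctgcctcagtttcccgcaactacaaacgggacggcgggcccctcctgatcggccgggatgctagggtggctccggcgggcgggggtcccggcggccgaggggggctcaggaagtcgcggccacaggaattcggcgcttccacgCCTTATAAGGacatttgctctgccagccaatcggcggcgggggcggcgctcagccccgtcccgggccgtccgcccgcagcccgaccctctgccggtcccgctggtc

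Of 32851 promoters of the same length, 1.63% hold a CArG box. The table matched 9 of the 10 genes, all but Tagln, with 11 starts, and 1 of these starts, that of Cnn2, holds a box, at position -56 from the start. The search with 1 letter off was added after the strict box was found in neither Acta2 nor Cnn1. This looser form occurs in 8.499% of all promoters, at -84 and -34 in Acta2, and once in each of the 2 Tpm3 starts. No form was found in the Cnn1 window, and sites outside these windows were not searched for any gene.

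Tagln, also called SM22α and widely used as an early smooth muscle marker, lies at chr9:45929619-45936058 (minus strand) and had 777, 767 and 782 CPM. The libraries lay within 1.02-fold. Tagln2, at chr1:172500047-172507380 (plus strand), is the paralog found in blood and many other cells, and had 544, 543 and 522 CPM, with replicate 3 the lowest. Per kilobase of exon Tagln was at 390.0 ± 3.59 CPM and Tagln2 at 258 ± 6.07.

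Tagln made up 59.9%, 59.7% and 61.1% of the transgelin sum of 648 ± 4.16 CPM per kilobase. It exceeded Tagln2 in 3 of 3 libraries, by 1.51-fold (p = 0.25, exact sign-flip permutation test, two-sided). It stayed above Tagln2 under all 5 length choices, at the least by 1.05-fold with the median coding length. On the opposite strand, 67.9% of the exonic bases of Tagln are overlapped by annotated genes, but those in the counted table, of which only Pcsk7 overlaps it, cover 5.43%, and Pcsk7 had 39.3 ± 1.73 CPM. No gene overlapped an exon of any of the 10 on the same strand. Whether the strand was used in counting is not given in the sources used here. Tagln3, the neuronal paralog, was at 0.628 ± 0.118 CPM, from 34, 35 and 22 counts.

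Cald1, at chr6:34598500-34775473 (plus strand), had 1256, 1179.8 and 1235 CPM, with replicate 2 the lowest. Its exons cover 12041 bases, the most of the 10 genes, and the level was 102 ± 3.28 CPM per kilobase. Per kilobase of the longest coding transcript, 4777 bases, it was 256 CPM. Cald1 held rank 42 by CPM and rank 442 per kilobase of exon. Counts per gene do not tell the smooth muscle from the non-muscle form.

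Summed over families, the muscle-type genes Tpm1, Tpm2, Cnn1 and Tagln came to 0.772, 0.797 and 0.792 times the 5 ubiquitous genes per kilobase of exon, a mean of 0.787 ± 0.0136. The ratio was below 1 in 3 of 3 libraries (p = 0.25, exact sign-flip permutation test, two-sided). It rested on the length: it was 0.98 with the median coding length, 0.997 with the longest coding transcript and 1.07 with CPM alone, the reverse direction. No order of the 2 groups is given that does not turn on this choice. Within families, under each of the 5 length choices, the muscle-type genes were higher for the tropomyosins and the transgelins and lower for the calponins. The mean share for the tropomyosins was between 52.5% and 70.3%. The counts of Tpm3-rs7 and Gm7809 were added only with CPM alone, at a share of 63.0%. Per kilobase of exon the tropomyosin lead reverses when both copies are added to Tpm3 and Tpm4, each over its own exons (77.3 and 59.3 CPM per kilobase).

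Neighbours in the order per kilobase of exon were compared library by library over 9 pairs. Cnn2 and Tagln, Tagln and Tpm2, and Cald1 and Cnn1 changed places between libraries, with folds of 1.02, 1.02 and 1.06, and did not differ beyond their spread (exact sign-flip permutation p = 0.5, adjusted p = 0.5). With 3 libraries the smallest p of the sign-flip test is 0.25, so it could not show any pair to differ. The other 6 pairs kept their order in 3 of 3 libraries. Among them, the smallest step was Tagln2 over Tpm1, by 1.17-fold, and the largest Cnn1 over Tpm3, by 4.55-fold (exact sign-flip permutation p = 0.25, adjusted p = 0.375 for each of the 6).

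Set against the actins, Acta2 had 6616, 6692 and 6510.1 CPM, or 3008 ± 41.6 CPM per kilobase. Actg1, the cytoplasmic γ-actin gene, had 1868 ± 90.6 CPM per kilobase and Actb 405 ± 9.68. Of the 50-base windows of Acta2, 0.353% occur at another locus. Shared sequence was not searched for in Actg1 or Actb, so reads lost to copies of them are not known. Per kilobase of exon, Tpm4 came to 17.4% ± 0.769 of Acta2, Cnn2 to 13.3% ± 0.186, Tagln to 13.0% ± 0.296 and Tpm2 to 12.8% ± 0.0156. Cnn1 came to 3.18% ± 0.0975 and Tpm3 to 0.699% ± 0.0482. The tropomyosin sum was 38.2% ± 0.785 of Acta2 and 0.215 ± 0.00495 times the sum of the 6 actin genes. All 10 genes together came to 2574 ± 25.6 CPM per kilobase of exon, below Acta2 alone, but by CPM without a length their sum of 8153 ± 72.4 was above the 6606 ± 91.2 of Acta2, so this order turns on the length.

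Other genes of the thin filament and of muscle cells place these levels. Of the 8 troponin genes, which regulate tropomyosin on striated muscle filaments, 4 had more than 3 counts in every library, and Tnnt2, at 11.4, 11.97 and 11.6 CPM, was the only one to reach 1 CPM. Of 7 genes of the filament's pointed end 5 had more than 3 counts in every library, led by the ubiquitous tropomodulin Tmod3 at 125 ± 4.97 CPM and the smooth muscle leiomodin Lmod1 at 95.2 ± 2.04 CPM. The other 3 above that limit were Tmod2 at 5.48 ± 0.789, Tmod1 at 3.45 ± 0.457 and Tmod4 at 0.663 ± 0.112 CPM.

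Of 10 smooth muscle markers 8 had more than 3 counts in every library, among them Acta2, Cnn1 and Tagln, which the choice of genes had already named. The others were Actg2 at 97.2 ± 1.60, Lmod1 at 95.2 ± 2.04, Smtn at 92.6 ± 5.54, Des at 10.4 ± 0.889 and Synpo2 at 8.56 ± 0.771 CPM. The smooth muscle myosin heavy chain Myh11 had 3, 7 and 6 counts and the coactivator gene Myocd 3, 7 and 2. Of 10 striated muscle markers 4 passed that limit. Among them the cardiac transcription factor gene Nkx2-5 stood at 82.4, 101 and 80.2 CPM and the other 3 below 1 CPM, while the 6 others, Myod1, Myog, Myf5, Ckm, Myh3 and Myh6, were at 0 counts in every library. Thus Acta2, Cnn1 and Tagln were abundant in libraries with almost no reads of Myh11.

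Finally, the spread of the 10 genes between libraries was set against counting error. At these depths counting alone gives a coefficient of variation (CV) of 0.383% for Tpm1 to 1.28% for Tpm3. A chi-square test of the 3 counts against the scaled library sizes, adjusted by Benjamini-Hochberg over the 13814 genes that reached 10 counts in each library, called 8 of the 10 genes at an adjusted p of at most 0.05, beside 43.9% of all genes tested. Among the 1898 tested genes between the lowest and the highest CPM of the 10, a range chosen after seeing the data, 80.0% were called. Their median level was 211 CPM against 879 CPM for the 10, so they do not match the 10 in depth. The spread itself was small, with a median CV of 2.49% over the 10 genes, 3.42% over that range and 5.58% over all genes tested.

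Tpm1 and Tagln did not pass, with adjusted p = 0.219 and 0.0879 by the chi-square test. The largest spans were those of Tpm3 at 1.15-fold (adjusted p = 1.49e-13, chi-square test), Cnn1 at 1.08-fold (adjusted p = 3.17e-09) and Tpm4 at 1.08-fold (adjusted p = 3.25e-32). Replicate 2 was often at the edge. Its log2 CPM was above the mean of replicates 1 and 3 by 0.14 for Tpm3 and 0.10 for Cnn1, and lower for Tpm4 (-0.08) and Cald1 (-0.08). Tpm4 and Cald1 have the lowest GC content of the 10 longest coding transcripts, 45.9% and 45.01%, and Tagln2 and Tpm2, with the highest, 55.8% and 55.1%, were both at 0.03 in replicate 2. Tpm3, next above those lowest values at 48.6%, and Cnn1, at 51.5%, had the largest positive differences. With the CPM of Tpm3-rs7 added to that of Tpm3, the replicate 2 difference was 0.02. The part of GC content in these differences was not tested.

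**Figure D4:**
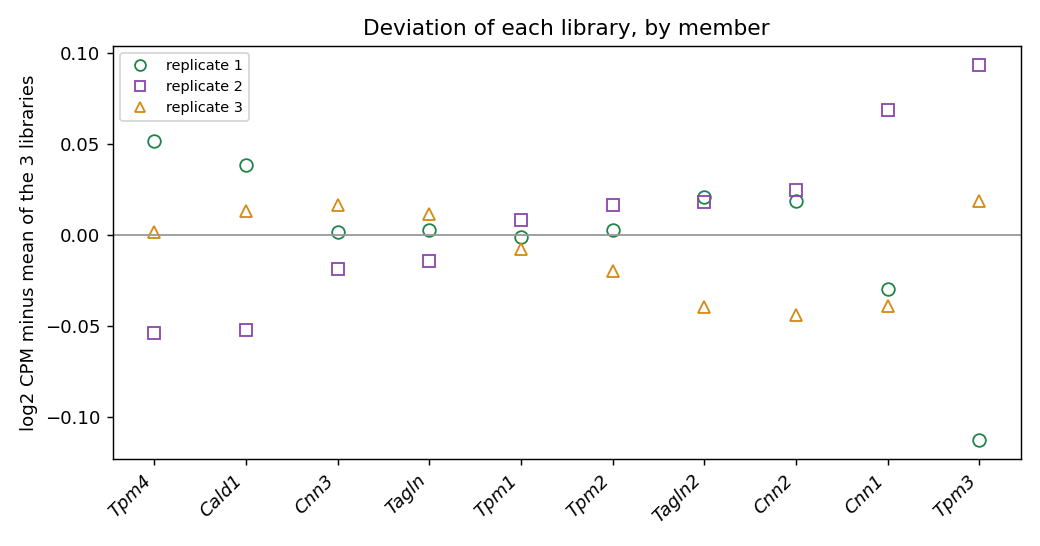
Deviation of log2 CPM in each KO-actin library from the mean of the 3 libraries, for the 10 genes ordered by replicate 2. Symbols are libraries; Tpm4 and Cald1 are lowest, and Cnn1 and Tpm3 highest, in replicate 2, and the point farthest from the mean is Tpm3 in replicate 1, at -0.11.

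Without replicate 2 the test called 5 of the 10 genes (Tpm3, Tpm4, Cald1, Cnn2 and Tagln2), beside 12.5% of all genes tested. Without replicate 3 it called 4 (Tpm3, Tpm4, Cald1 and Cnn1), beside 34.0% of all genes. Without replicate 1 it called 9, all but Tpm1, beside 32.9%. Tpm3, Tpm4 and Cald1 were thus called whichever library was left out. With all libraries, genes within the CPM range of the 10 were called more often than all genes. Their share was not computed with a library left out.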

How the data were processed

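RNA-Seq of polyadenylated RNA from 3 KO-actin libraries, grouped by their labels, was analysed. For each library the authors deposited unnormalized counts, 1 whole number per Ensembl gene. The submitters' processing notes name Trimmomatic, FastQC, HISAT2 and HTSeq and the builds mm10 and GRCm38, with no role or version. The counting mode and the annotation release are not given in the sources used here, and reads of genes with near-identical copies may have been dropped or split.

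Gene identifiers were matched to GENCODE M21 on GRCm38 for 46005 of 46603 genes, and the 598 others held 0.0768% of counts. TMM (edgeR 4.0.16, R 4.3.3) scaled the library sizes, with DESeq2 1.42.0 size factors or total counts as alternatives. CPM was divided by the exonic length, with the median or longest coding transcript, no length, and the longest coding transcript less its 50-base windows shared with another locus as alternatives, the last chosen after seeing the data. A chi-square of the 3 counts of a gene against the library sizes, adjusted by Benjamini-Hochberg at 0.05 over genes reaching 10 counts in each library, measured spread beyond counting error and was tested on simulated data. Paralogs were compared within libraries by the exact sign-flip permutation test. Other filters and each replicate left out were also tried. Scripts used scipy 1.17.1, pandas 2.3.3, numpy 2.4.6 and matplotlib 3.10.9 on Python 3.11.15.

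Members and lists were chosen with earlier results of these data known. The genes named were the 10 members, the actin, troponin, filament end and cell type marker lists, Tagln3, and genes that share sequence with a member or overlap its exons. Protein sequences were not used here.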

Additional observations from a re-analysis of the deposited data

How the results depend on the processing

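No paired analysis was possible because there is 1 group. The length used per kilobase mattered most, by its construction. The share of Tpm1 and Tpm2 among tropomyosins was 52.5% by exonic length, 70.3% by the median coding length, 62.6% by the longest coding transcript, 66.4% with CPM alone, 56.6% without shared windows and 63.0% with CPM alone and the counts of Tpm3-rs7 and Gm7809 added, the last 2 settings chosen after seeing the data. The calponin share of Cnn1 was 16.8% (median coding), 14.6% (CPM alone) and 13.2% (without shared windows). The transgelin share of Tagln was 51.3%, 59.0%, 59.1% and 58.8% in turn for median coding, longest coding, CPM alone and without shared windows. The ratio of muscle-type to ubiquitous genes was 0.98, 0.997 and 0.874 for median coding, longest coding and without shared windows, and reversed to 1.07 with CPM alone. The ratio of tropomyosin to actin was 0.205, 0.2499 and 0.2998 for median coding, longest coding and CPM alone.

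Without replicate 1, the chi-square test called 9 of the 10 genes and 4595 of all genes (32.9% of those tested). It called 5 and 1748 (12.5%) without replicate 2, and 4 and 4786 (34.0%) without replicate 3. The cause was not tested, and the share within the CPM range of the 10 was not computed for these settings. The test called 8 of the 10 with DESeq2 size factors and with total counts (where Tagln was called in place of Tpm2), each beside 43.9% of all genes. It called 8 with at least 100 counts (52.0%), and 7 with no filter (25.9%, without Cnn3). Requiring 1 CPM in every library left 1 troponin gene and 1 striated muscle marker. Of the single gene levels, 0 of 20 moved beyond their SD with the other scalings. With the other 3 lengths 26 of 30 moved, all upward, since each is at most as long as the exonic length. Counting error on the 10 genes was at most 1.28%, and 3 libraries limit the order of neighbours in level; the length, the isoforms and the shared sequence limit comparisons between genes.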
